A study of Homo sapiens with 18 samples.

Results

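The GATA3 locus is described here as the accessible regions that overlap chromosome 10 between 7.9 and 8.7 Mb (hg19), which takes in GATA3 at 8.097 to 8.117 Mb and the stretch beyond it. By this rule 60 of the 132604 regions in the table belong to the locus, and all 60 passed the filter on low counts. The members were picked by position and not by any measured value, though with earlier results of these data known. T47D cells, an established breast cancer line of human origin, carry the progesterone receptor, and R5020 (promegestone) is a synthetic progestin. The assay was Omni-ATAC-seq, in which the Tn5 transposase cuts accessible DNA, so that the reads of a region follow how open it is. All cells were plated in medium without phenol red and held in low serum before treatment. The 6 groups were DMSO vehicle, 0.1 nM R5020 (100pM in the sample names) and 10 nM R5020, each at 6 h and at 18 h, with 3 libraries per group and 18 in all. All libraries come from this 1 cell line, and the labels do not say whether the 3 libraries of a group are separate cultures, so p-values measure the spread between libraries, which may be technical.

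GATA3 is a zinc-finger transcription factor that binds GATA motifs. In the breast it specifies and maintains luminal epithelial cells, where it acts together with FOXA1 and the estrogen receptor, and it is recurrently mutated in luminal breast cancers. Steroid hormone receptors such as the progesterone receptor are ligand-activated transcription factors that mostly bind away from gene starts. GATA3-AS1 is a long non-coding RNA gene that starts close to GATA3 and is transcribed in the opposite direction. ATAC reads carry no strand of transcription, so the openness between these starts cannot be given to either gene alone.

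The promoters of both genes are shown because the strongest region of the locus ends at the start of GATA3 as the rule sets it. The rule gives that start only to the kb, as 8.097 Mb, and all distances are counted from it. Each is 300 bases from RefSeq (GRCh38.p14), 250 before the start and 50 after it, written 5′ to 3′ on the gene's own strand, and the capitals mark the GC box GGGCGG or its reverse complement CCGCCC. The GATA3 promoter is at chr10:8054438-8054737 (plus strand) and that of GATA3-AS1 at chr10:8053435-8053734 (minus strand), both in GRCh38.p14. These coordinates were not converted to hg19.
GATA3: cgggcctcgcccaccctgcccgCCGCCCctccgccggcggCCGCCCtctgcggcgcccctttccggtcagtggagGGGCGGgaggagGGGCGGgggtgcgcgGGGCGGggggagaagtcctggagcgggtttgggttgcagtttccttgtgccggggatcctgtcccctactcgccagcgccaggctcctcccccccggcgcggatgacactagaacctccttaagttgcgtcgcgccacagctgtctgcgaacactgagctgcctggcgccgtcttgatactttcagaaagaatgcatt
GATA3-AS1: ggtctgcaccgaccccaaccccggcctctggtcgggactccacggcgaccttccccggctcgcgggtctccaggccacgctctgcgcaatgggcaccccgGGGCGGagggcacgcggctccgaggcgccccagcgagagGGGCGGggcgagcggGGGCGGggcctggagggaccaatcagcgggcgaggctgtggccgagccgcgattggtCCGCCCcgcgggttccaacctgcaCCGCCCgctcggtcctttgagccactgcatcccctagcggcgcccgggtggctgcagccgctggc
Both are GC-rich CpG-island type sequences. The GATA3 promoter has a GC content of 69.3% and 29 CG dinucleotides, and that of GATA3-AS1 has 76.3% and 36, against medians of 58.7% and 14 over the 35116 promoters in the RefSeq table. Each holds 5 GC boxes counted on both strands, a motif present in 45.0% of all promoters. TGTTCT, a half-site that the progesterone receptor binds, has 0 matches in either promoter and is present in 14.8% of all promoters. The full palindrome GNACANNNTGTNC, which can overlap the half-site, has 0 matches in both against 0.39% of all promoters. GATAA, an extended form of the GATA core that GATA factors bind, has 0 in both against 22.7%. The shorter GATA does occur in the GATA3 promoter, followed by C. The counts of 0 say only that these exact letters are absent from these windows. RefSeq lists 6 starts for GATA3, and the one shown is the only one whose distance to the gene's end is within 1 kb of the length of the hg19 interval.

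The 60 regions were 152 to 2420 bp wide, with a median of 372 bp. Their counts summed to between 3468 and 15729 per library, out of totals of 8756311 to 39984217 counts in regions per library. Levels are given as CPM, the reads of a region as a rate of its library's total, scaled with TMM factors. Over the vehicle libraries the regions ranged from 0.35 to 130 CPM with a median of 2.81, and 12 of the 60 lay under 1 CPM, where few counts limit the precision. The most open was chr10:8095345-8097005, whose midpoint lies at -0.8 kb from the GATA3 start and which ranked 359 of 132304 regions by vehicle CPM. It had 78.6 CPM per kb over the vehicle libraries, against 68.0 for chr10:8093745-8094108 at -3.1 kb and 45.3 for chr10:8092647-8093238 at -4.1 kb. Also among the 5 highest by CPM were chr10:8116971-8119391, which spans the gene's 3′ end at 21.2 kb with 14.3 CPM per kb, and chr10:8585436-8586870 at 489.2 kb with 18.6. By zone, the median vehicle CPM was 10.2 for the 10 regions that overlap GATA3, 1.9 for the 15 before it, 2.01 for the 13 after it up to 8.3 Mb and 1.75 for the 22 from 8.3 Mb on. The exon, intron and UTR positions of these regions are not given here, since no hg19 annotation was used. RefSeq names TAF3 as the protein-coding gene before GATA3 and CELF2 as the next one after it, with 26 genes between GATA3 and CELF2, of which 18 are long non-coding RNA genes and 8 pseudogenes.

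With 10 nM R5020 most of the open chromatin in and just before GATA3 became less accessible at both times, while 1 region inside the gene opened. Of the 12 regions that overlap GATA3 or its 5 kb upstream, 9 fell and 1 rose at 6 h against vehicle, with a median log2 fold change of -0.99, and 9 fell and 1 rose at 18 h, with a median of -0.84. Over all 60 members, 14 fell (23.3%) and 6 rose (10.0%) at 6 h by edgeR's quasi-likelihood test at an adjusted p under 0.05. Among all 132304 regions tested, 8.42% fell and 16.7% rose in that comparison. At 18 h 15 members fell (25%) and 6 rose (10.0%), against 7.56% lower and 12.8% higher among all regions. The median log2 fold change of the members was -0.26 at 6 h and -0.25 at 18 h, against -0.05 and 0.01 over all regions. On the rest of chromosome 10, 8.39% of 7450 regions fell at 6 h and 7.17% at 18 h. The split at 18 h depended on the scaling: without TMM factors, which moved the median of all regions from 0.01 to 0.17, 6 members rose and 7 fell. Those falls were 11.7% of the members, against 6.32% of all regions in that fit. At 6 h the median of all regions moved from -0.05 to 0.06 without them, and 6 members rose and 13 fell (21.7%, against 6.75% of all regions). The counts of falls also depended on single libraries, and so did the shares of all regions. At 6 h 9 members fell without vehicle replicate 1, and 10 or 11 without 10 nM replicate 1 or 2. Among all regions 4.89%, 4.94% and 5.36% fell in these fits, in the same order, against 8.42% with all libraries. At 18 h 8 or 9 members fell without vehicle replicate 2 or 3. Among all regions 5.46% and 6.49% fell in these fits, against 7.56% with all libraries. Without 10 nM replicate 1 at 18 h, the library farthest from its own group, 10 members (16.7%) fell at 18 h, against 11.5% lower and 10.7% higher among all regions, and the members' median was -0.02 against 0.09 over all regions.

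**Figure D1:**
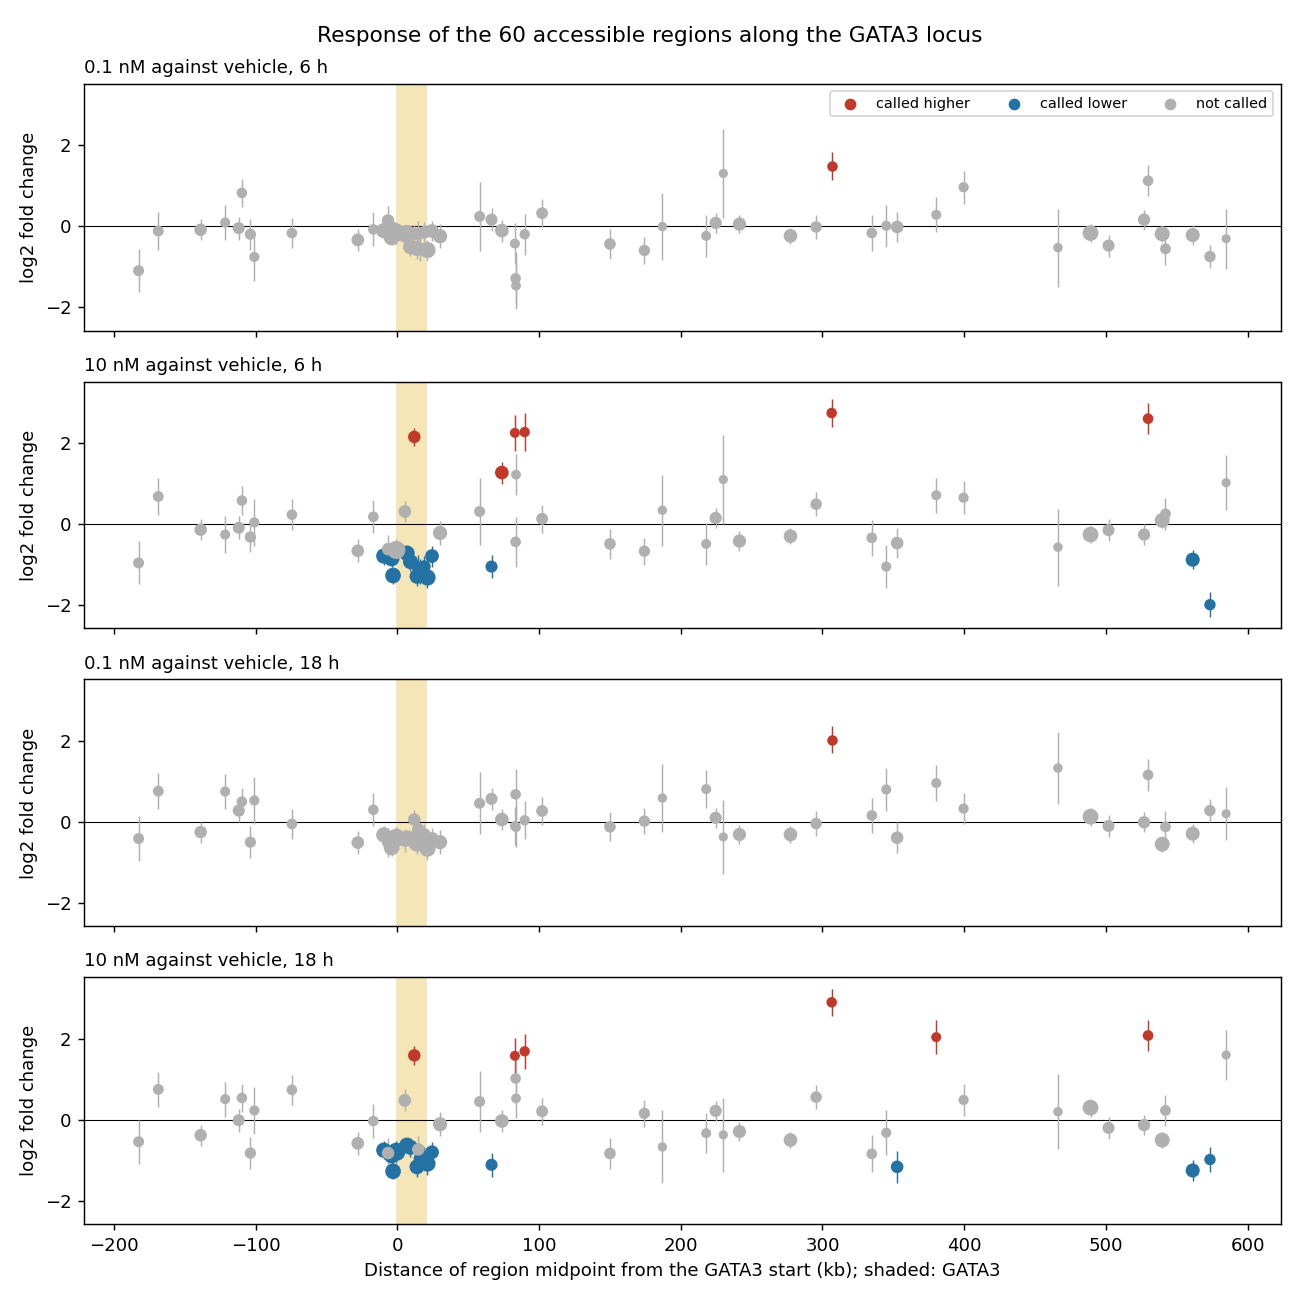
Log2 fold change of the 60 regions against vehicle (vertical axis, bars are the standard error) by the distance of the region's midpoint from the GATA3 start in kb (horizontal axis), for 0.1 nM and 10 nM at 6 h and 18 h; point size grows with the vehicle level, red and blue points passed the edgeR test and the shaded band is GATA3. With 10 nM 9 of the 14 falls at 6 h and 9 of the 15 at 18 h lie in GATA3 or its 5 kb upstream, while with 0.1 nM the 1 region that passed lies at 306.5 kb.

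By zone, most of the falls with 10 nM lay in and just before the gene. Before GATA3, 3 of 15 regions fell at each time, and these lay at -9.6, -4.1 and -3.1 kb. For the 8 regions that start between 7.9 and 8.0 Mb the lowest adjusted p by edgeR with 10 nM was 0.201 at 6 h and 0.159 at 18 h. Overlapping GATA3, 7 of 10 fell and 1 rose at each time. After the gene up to 8.3 Mb, 2 of 13 fell and 3 rose at 6 h, and 2 fell and 2 rose at 18 h. From 8.3 Mb on, 2 of 22 fell and 2 rose at 6 h, and 3 fell and 3 rose at 18 h. Whether the zones differ from each other was not tested.

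The region at the start of GATA3, at -0.8 kb, was the most open of the locus. At 6 h it had 161, 132 and 108 CPM with vehicle, 138, 98.8 and 121 with 0.1 nM and 87.3, 87.2 and 82.7 with 10 nM. All 3 libraries with 10 nM lay below all 3 with vehicle, yet the log2 fold change of -0.64 (SE 0.27) did not pass the test (edgeR adjusted p = 0.0881). At 18 h it had 152, 132 and 98.1 CPM with vehicle, 123, 99.6 and 68.5 with 0.1 nM and 102, 63.8 and 53.7 with 10 nM. There the groups overlapped by 1 library, and the log2 fold change was -0.79 (SE 0.27, edgeR adjusted p = 0.0413). That call was lost under 8 of 14 alternatives, across which the adjusted p ran from 0.00205 to 0.193. Among these 8 were the fits without vehicle replicate 1 or 2 and without 10 nM replicate 2 or 3. The fraction of all counts that fell in each library's own 5000 strongest regions moved with it: it was 34.1 to 35.0% with 10 nM and 37.4 to 42.6% with vehicle at 6 h, and 32.5 to 38.0% with 10 nM and 36.5 to 40.3% with vehicle at 18 h. With that fraction as a covariate the 18 h log2 fold change was -0.27 and did not pass. The fraction itself differed between 10 nM and vehicle, without overlap at 6 h, so this covariate can also take up an effect of the dose. A fixed set, the 5000 regions with the highest vehicle CPM, had median log2 fold changes of -0.37 at 6 h and -0.40 at 18 h with 10 nM, and 5.1% and 5.58% of them fell. That set was picked on the vehicle libraries compared here, which can by itself lower its fold changes.

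Both regions of the 5 kb upstream fell at both times. The -3.1 kb region had 9.7, 9.84 and 8.78 CPM with 10 nM at 6 h against 24.9, 24.2 and 19.4 with vehicle, and 12, 10.8 and 10.1 at 18 h against 29.8, 28.8 and 21.0. Every library with 10 nM lay below every vehicle library. The log2 fold change was -1.27 at both times (SE 0.20, edgeR adjusted p = 7.62e-05 at 6 h and 0.000108 at 18 h), and the fall passed under all 14 alternatives at each time. It also passed against 0.1 nM, with -1.18 at 6 h (edgeR adjusted p = 0.000214) and -0.84 at 18 h (edgeR adjusted p = 0.00844); the second was lost without 0.1 nM replicate 1 and in a fit of only the groups compared. The -4.1 kb region fell too, by 0.85 at 6 h and by 0.88 at 18 h on the log2 scale (edgeR adjusted p = 0.00288 and 0.0028). With the fraction in the 5000 strongest regions as a covariate the 6 h log2 fold changes were -0.84 at -3.1 kb and -0.48 at -4.1 kb, and both passed. Further out, chr10:8087021-8087797 at -9.6 kb fell by 0.79 and by 0.75 (edgeR adjusted p = 0.00942 and 0.017), a region outside the rule for named regions and chosen after its values were seen.

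Inside the gene, 1 region behaved in the opposite way to those on either side of it. At 11.9 kb, chr10:8108640-8109181 had 4.83, 3.46 and 4.13 CPM with vehicle, 3.31, 3.16 and 4.22 with 0.1 nM and 16.9, 21.4 and 16.2 with 10 nM at 6 h. Its 18 h levels were 3.19, 3.19 and 4.01 with vehicle, 2.54, 3.8 and 4.76 with 0.1 nM and 12.1, 9.49 and 9.6 with 10 nM. Libraries given 10 nM stood above all others at both times, and the 0.1 nM libraries overlapped the vehicle libraries. The rise with 10 nM was 4.44-fold at 6 h (log2 2.15, SE 0.23, edgeR adjusted p = 1.13e-06) and 3.02-fold at 18 h (log2 1.59, SE 0.23, edgeR adjusted p = 4.28e-05). Against 0.1 nM it was 5.08-fold at 6 h (edgeR adjusted p = 6.77e-07) and 2.89-fold at 18 h (edgeR adjusted p = 0.000203). All 4 calls passed under every alternative run. With 0.1 nM against vehicle the log2 fold change was -0.19 at 6 h and 0.06 at 18 h (SE 0.23 and 0.24, edgeR adjusted p = 0.968 and 0.96).

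Its nearest neighbours closed at the same dose. On the 5′ side, chr10:8105506-8106798 at 9.2 kb had 9.46, 9.26 and 11 CPM with 10 nM against 26.4, 13.9 and 16.9 with vehicle at 6 h (log2 -0.93, SE 0.23, edgeR adjusted p = 0.00448). On the 3′ side, chr10:8110221-8111293 at 13.8 kb had 6.14, 8.68 and 7.55 CPM with 10 nM against 27.6, 14.1 and 13.6 with vehicle at 6 h (log2 -1.29, SE 0.25, edgeR adjusted p = 0.000627). Neither pair of groups overlapped, and vehicle replicate 1 was the highest library of both. Without that library the fall at 9.2 kb was lost and that at 13.8 kb kept its call. At 18 h both passed again, with log2 fold changes of -0.68 at 9.2 kb (edgeR adjusted p = 0.0408, lost under 9 of 14 alternatives, among them without each vehicle library and without 10 nM replicate 1 or 2) and -1.16 at 13.8 kb (edgeR adjusted p = 0.00244, kept under all 14).

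The other regions of the gene body ranged from 3.0 to 22.5 CPM over the vehicle libraries. At 6.7 kb, chr10:8103188-8104180 fell by 0.72 at 6 h and by 0.63 at 18 h on the log2 scale (edgeR adjusted p = 0.00629 and 0.0203). The small regions at 15.7 kb (chr10:8112673-8112825) and 19.0 kb (chr10:8115841-8116068) fell by 1.17 and 1.05 at 6 h (edgeR adjusted p = 0.00639 and 0.00513) and by 0.95 and 0.93 at 18 h (edgeR adjusted p = 0.0301 and 0.0172). Without TMM factors, and in a fit of only the groups compared, these 18 h falls were lost. At 6.7 kb the 18 h fall was also lost without 10 nM replicate 1 or 2 or vehicle replicate 2 or 3, and the 6 h fall without 10 nM replicate 1 or 2. At 15.7 kb the 18 h fall was lost without 10 nM replicate 3 or vehicle replicate 2 or 3, and at 19.0 kb without replicate 1 of either group. At 14.7 kb, chr10:8111521-8111804 fell by 1.08 at 6 h (edgeR adjusted p = 0.0145, lost without 10 nM replicate 1 or vehicle replicate 1 and without TMM factors), and at 18 h its log2 fold change was -0.73 (edgeR adjusted p = 0.119). The region at 5.2 kb, chr10:8102028-8102378, had 5.01, 4.59 and 7.11 CPM with 10 nM against 6.41, 3.09 and 4.37 with vehicle at 6 h. It passed no test against vehicle (log2 0.31 at 6 h and 0.48 at 18 h), and was higher with 10 nM than with 0.1 nM at 18 h (log2 0.94, edgeR adjusted p = 0.0353, lost under 6 of 14 alternatives, among them without replicate 1 or 3 of either group).

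The wide region over the 3′ end, at 21.2 kb and 2420 bp long, fell with 10 nM at both times. It had 63.5, 33.2 and 23.1 CPM with vehicle, 31.7, 21.8 and 25.9 with 0.1 nM and 17.4, 16.2 and 14.2 with 10 nM. After 18 h it had 31.2, 25.7 and 30.2 CPM with vehicle, 17.7, 19.6 and 18.0 with 0.1 nM and 12.2, 16.4 and 12.7 with 10 nM. Libraries given 10 nM lay below the vehicle libraries at both times, by 2.5-fold at 6 h (log2 -1.32, SE 0.27, edgeR adjusted p = 0.000959) and 2.12-fold at 18 h (log2 -1.08, SE 0.27, edgeR adjusted p = 0.00628). Without vehicle replicate 1 at 6 h, whose level was the highest, the 6 h log2 fold change was -0.79 and passed. At 18 h the 0.1 nM libraries also lay below every vehicle library, with a log2 fold change of -0.66 that did not pass (SE 0.27, edgeR adjusted p = 0.29).

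**Figure D2:**
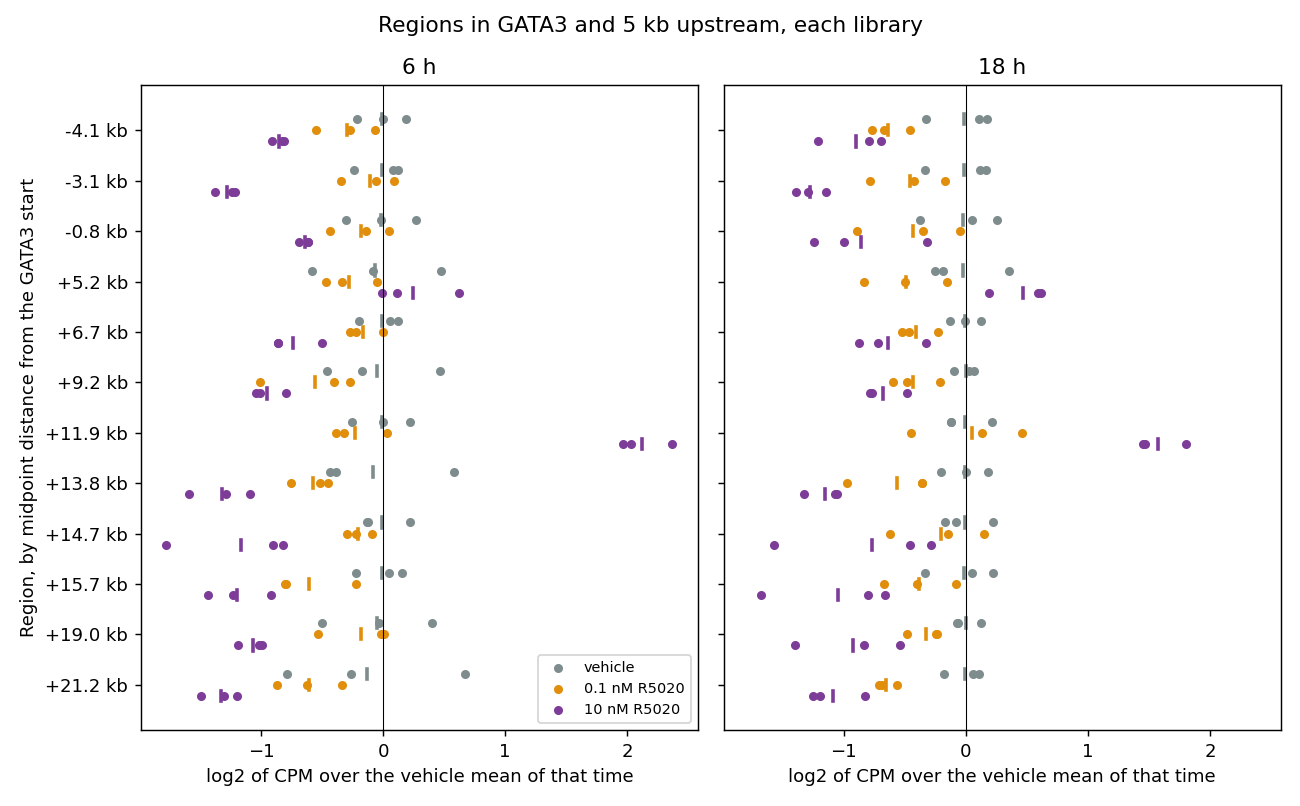
Log2 of CPM over the vehicle mean of the same time (horizontal axis) for the 12 regions of GATA3 and its 5 kb upstream, ordered from 5′ to 3′ (vertical axis), at 6 h (left) and 18 h (right); each point is a library and each bar the mean of 3. All 10 nM libraries lie left of the vehicle mean in 10 regions at each time and well to the right of it at 11.9 kb, and the 0.1 nM means of the regions that fell lie between.

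Beyond the gene, 3 regions between 73 and 90 kb rose with 10 nM at 6 h, next to 1 that fell. At 73.7 kb, chr10:8170326-8171058 had 18.4, 21.1 and 14.5 CPM with 10 nM against 8.09, 8.88 and 5.34 with vehicle at 6 h (2.41-fold, log2 1.27, SE 0.27, edgeR adjusted p = 0.00134). At 18 h it had 8.43, 6.87 and 7.18 CPM with 10 nM against 7.33, 9.72 and 6.07 with vehicle (log2 -0.03, SE 0.27, edgeR adjusted p = 0.946). The groups were apart at 6 h and overlapped at 18 h. The test of that difference between times gave a log2 change of -1.30 (SE 0.38), which did not pass after adjustment over all regions (edgeR adjusted p = 0.402); it passed once each library's fraction in the 5000 strongest regions was a covariate.

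A pair of weak regions nearby rose at both times. At 89.8 kb, chr10:8186549-8187035 had 4.31, 3.52 and 4.65 CPM with 10 nM against 0.315, 0.773 and 1.46 with vehicle at 6 h, and 4.55, 2.86 and 4.57 against 0.776, 1.39 and 1.59 at 18 h. The groups did not overlap (log2 2.27, SE 0.47, edgeR adjusted p = 0.00106 at 6 h and log2 1.69, SE 0.44, adjusted p = 0.00887 at 18 h, the second lost without vehicle replicate 1). At 82.9 kb, chr10:8179772-8180024 rose by 2.25 on the log2 scale at 6 h (edgeR adjusted p = 0.000908) and by 1.58 at 18 h (edgeR adjusted p = 0.0118, lost without 10 nM replicate 3 or vehicle replicate 2). At 83.7 kb, chr10:8180627-8180805 was higher with 10 nM than with 0.1 nM at 6 h (log2 2.68, edgeR adjusted p = 0.00119), while against vehicle it did not pass (log2 1.22, edgeR adjusted p = 0.089). Its 6 h levels were 1.41, 1.29 and 1.05 CPM with 10 nM, 0.118, 0.298 and 0.183 with 0.1 nM and 0.63, 0.442 and 0.567 with vehicle. The 0.1 nM levels are near the floor, with a lowest count of 4, so the size of that fold change is imprecise.

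At 66.4 kb, chr10:8163165-8163648 fell with 10 nM, while its 0.1 nM libraries lay above those with vehicle at 18 h. At 18 h it had 3.49, 2.62 and 3.83 CPM with vehicle, 6.26, 3.94 and 4.47 with 0.1 nM and 1.21, 1.47 and 2.05 with 10 nM. Each dose's libraries were apart from the others. Against vehicle the log2 fold change with 10 nM was -1.11 (SE 0.29, edgeR adjusted p = 0.0091, lost without 10 nM replicate 1) and that with 0.1 nM was 0.57 (SE 0.27, edgeR adjusted p = 0.417). Between the doses it was -1.69 at 18 h (SE 0.29, edgeR adjusted p = 0.000637) and -1.21 at 6 h (SE 0.28, edgeR adjusted p = 0.00372), which passed under every alternative run.

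In the far stretch from 8.3 Mb on, 1 region rose with both doses at both times. At 306.5 kb, chr10:8403221-8403815 had 0.945, 1.18 and 1.62 CPM with vehicle, 5.82, 2.27 and 2.27 with 0.1 nM and 8.29, 8.55 and 8.28 with 10 nM at 6 h. The 18 h libraries had 0.776, 1.23 and 1.41 with vehicle, 5.08, 4.7 and 3.99 with 0.1 nM and 9.17, 9.24 and 6.81 with 10 nM. No group overlapped another at either time. With 10 nM the rise was 6.66-fold at 6 h (log2 2.74, SE 0.34, edgeR adjusted p = 6.25e-06) and 7.45-fold at 18 h (log2 2.90, SE 0.34, edgeR adjusted p = 4.38e-06). With 0.1 nM it was 4.08-fold at 18 h (log2 2.03, SE 0.34, edgeR adjusted p = 0.00175), under all 13 alternatives, and 2.8-fold at 6 h (log2 1.48, SE 0.34, edgeR adjusted p = 0.0343). The 6 h call was lost without 0.1 nM replicate 1, its highest library, without vehicle replicate 1 or 2 and in a fit of only the groups compared, and its adjusted p ran from 0.00765 to 0.351 over the alternatives. The 10 nM level was above the 0.1 nM level at 6 h (log2 1.25, SE 0.30, edgeR adjusted p = 0.00458), and at 18 h that difference did not pass (log2 0.87, SE 0.30, edgeR adjusted p = 0.0743).

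The other far regions that rose were weak in vehicle cells. At 529.8 kb, chr10:8626573-8626939 had 7.45, 6.77 and 12.3 CPM with 10 nM against 0.84, 1.88 and 1.46 with vehicle at 6 h (log2 2.60, SE 0.38, edgeR adjusted p = 4.04e-05), and rose by 2.08 on the log2 scale at 18 h (edgeR adjusted p = 0.000543). With 0.1 nM its log2 fold changes were 1.12 and 1.16, and neither passed (edgeR adjusted p = 0.244 and 0.168). At 380.3 kb, chr10:8477188-8477388 had 2.58, 2.94 and 2.98 CPM with 10 nM against 0.561, 0.617 and 0.884 with vehicle at 18 h (log2 2.04, SE 0.42, edgeR adjusted p = 0.0015), while at 6 h its groups overlapped (log2 0.71, edgeR adjusted p = 0.241).

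Among the far regions that fell, chr10:8670403-8670677 at 573.5 kb had 0.468, 0.534 and 0.702 CPM with 10 nM against 2.1, 2.87 and 1.86 with vehicle at 6 h, a 3.98-fold difference between groups that did not overlap (log2 -1.99, SE 0.31, edgeR adjusted p = 6.83e-05). At 18 h its log2 fold change was -0.98 (SE 0.30, edgeR adjusted p = 0.0266), a call lost under 7 of 14 alternatives, among them without each vehicle library and without 10 nM replicate 2 or 3. At 561.3 kb, chr10:8657977-8658662 fell by 0.88 at 6 h (edgeR adjusted p = 0.00979, lost without 10 nM replicate 2 or vehicle replicate 1, and at -0.35 with the fraction in the 5000 strongest regions as a covariate) and by 1.25 at 18 h (edgeR adjusted p = 0.000949) on the log2 scale. At 352.7 kb, chr10:8449404-8450026 passed at 18 h with a log2 fold change of -1.16 (edgeR adjusted p = 0.0433), but its groups overlapped and the call was lost under 7 of 14 alternatives, among them without 10 nM replicate 1 or 3 and without vehicle replicate 2 or 3. The strong region at 489.2 kb had 24.1, 23.9 and 25.5 CPM with 10 nM against 35.5, 24.4 and 28.2 with vehicle at 6 h and passed no test (log2 -0.26 at 6 h and 0.30 at 18 h).

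**Figure D3:**
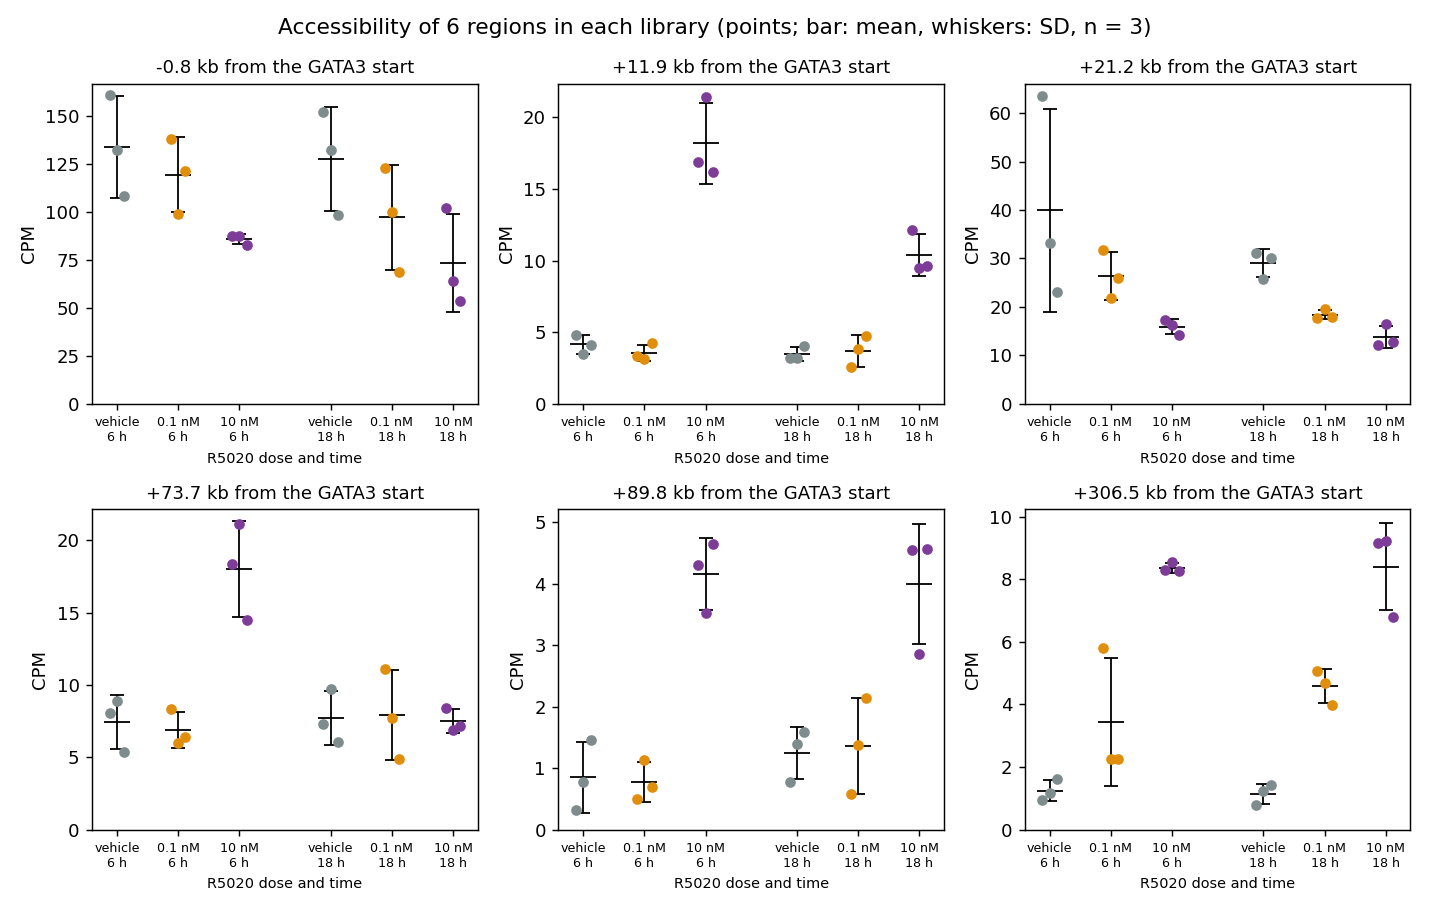
CPM of each library (points, vertical axis from 0) in vehicle, 0.1 nM and 10 nM groups at 6 h and 18 h (horizontal axis) for 6 regions named by their distance from the GATA3 start; bars are means and whiskers the SD of 3 libraries. At 306.5 kb the 0.1 nM libraries stand between the other groups, at 11.9 and 89.8 kb they lie with the vehicle libraries, and at 73.7 kb the 10 nM libraries are high at 6 h and back among the others at 18 h.

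With 0.1 nM R5020 the region at 306.5 kb was the 1 member that passed the test. At 6 h 1 member rose and 0 fell, against 0.949% higher and 0.241% lower among all regions, and at 18 h 1 rose and 0 fell, against 1.74% higher and 0.698% lower. The 12 regions of GATA3 and its 5 kb upstream gave 0 calls by edgeR at either time; 3 at 6 h and 5 at 18 h had an unadjusted p under 0.05, and their median log2 fold changes were -0.22 and -0.41. Over all 60 the median was -0.17 at 6 h and -0.07 at 18 h, against -0.04 and -0.01 for all regions. The 18 h median of the members was 0.04 without vehicle replicate 3 and 0.01 without 0.1 nM replicate 1, with 0.06 for all regions in both fits. At 18 h 6 of the 12 had all 3 of their 0.1 nM libraries below all vehicle libraries, a pattern found in 7.56% of all regions. At 6 h 1 of the 12 did, against 6.67%. Over all 60 members 9 at 6 h and 10 at 18 h had an unadjusted p under 0.05, in either direction. The share of all regions at that unadjusted threshold was not taken, so these counts and those of the 12 have no background beside them. DESeq2's Wald test called the same 1 member as higher and 0 as lower at each time.

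Between the doses, 10 nM left 9 members lower and 7 higher than 0.1 nM at 6 h, against 5.25% lower and 15.1% higher among all regions. At 18 h 4 were lower and 4 higher, against 4.22% lower and 6.67% higher. With DESeq2's size factors the 6 h split was 5 lower and 7 higher, and without TMM factors 6 lower and 7 higher. Among all regions 4.54% were lower and 15.6% higher in the first fit, and 4.47% and 14.9% in the second. The 6 h falls rested on single libraries: there were 3 without 10 nM replicate 1 or without 0.1 nM replicate 1, 4 without 0.1 nM replicate 3 and 5 without 10 nM replicate 3. In these fits 2.84 to 3.27% of all regions were lower, against 5.0 to 8.33% of the members. At 18 h the higher count was 1 or 2 without 10 nM replicate 1 or 3 or 0.1 nM replicate 1 or 2, and the lower count 2 without 0.1 nM replicate 1. Among all regions 3.8 to 5.79% were higher in these fits, and 2.23% lower without 0.1 nM replicate 1. Among the 12 regions at GATA3, 6 were lower and 1 higher at 6 h, and 1 was lower and 2 higher at 18 h.

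The comparisons of each dose with vehicle share the vehicle libraries, so their values are set side by side only. Of the 14 members that fell with 10 nM at 6 h, the median log2 fold change was -1.05 with 10 nM and -0.20 with 0.1 nM, and the 0.1 nM mean lay between the other means in 13. For the 15 that fell at 18 h it was -0.95 with 10 nM and -0.39 with 0.1 nM, with 13 between. The members that rose did not line up this way at 6 h: for the 6 of them the median was 2.26 with 10 nM and -0.15 with 0.1 nM, and the 0.1 nM mean lay between in 2. At 18 h it was 1.87 with 10 nM and 0.51 with 0.1 nM, with 5 of 6 between. These members were chosen because their 10 nM and vehicle levels lay apart, so a 0.1 nM mean can lie between without a response to 0.1 nM. The share with a mean between among all called regions was not taken.

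The times were compared last. With vehicle 0 members differed between 18 h and 6 h by edgeR, as did 0% of all regions; 1 member had an unadjusted p under 0.05, and DESeq2 also called 0. The response to 10 nM differed between times in 0 members (all regions: 0% higher and 0.00151% lower) and that to 0.1 nM in 0 members (all regions: 0%), with 4 and 2 members at an unadjusted p under 0.05. Here too no share of all regions was taken at the unadjusted threshold. DESeq2 called 0 in both. Of the members that fell with 10 nM, 13 did so at both times, which is 92.9% of the 6 h falls and 86.7% of the 18 h falls. Among all regions the shares were 58.3% and 64.9%; the difference from the members was not tested. Of those that rose, 5 did so at both times, 83.3% of either set, against 60.8% of the 6 h rises and 79.2% of the 18 h rises among all regions. The regions called at 1 time alone were those at 14.7 kb (lower) and 73.7 kb (higher) at 6 h, and those at -0.8 and 352.7 kb (lower) and 380.3 kb (higher) at 18 h.

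The summed level of the locus follows its few strong regions, and is given as a description. All 60 regions together held 593, 458 and 422 CPM with vehicle, 465, 369 and 444 with 0.1 nM and 365, 373 and 377 with 10 nM at 6 h, and 483, 458 and 425 with vehicle, 400, 387 and 347 with 0.1 nM and 367, 319 and 323 with 10 nM at 18 h. The 10 nM sums lay below all vehicle sums at both times. The mean was 372 ± 6.07 CPM with 10 nM and 491 ± 90.0 with vehicle at 6 h, and 336 ± 26.9 with 10 nM and 455 ± 29.4 with vehicle at 18 h (SD, n = 3 each). For the 10 regions that overlap GATA3 it was 162 ± 3.63 CPM with 10 nM and 254 ± 66.6 with vehicle at 6 h, and 139 ± 22.7 with 10 nM and 225 ± 26.6 with vehicle at 18 h (SD, n = 3 each). With 0.1 nM these 10 regions held 209 ± 28.4 CPM at 6 h, where the libraries overlapped those with vehicle, and 168 ± 24.8 at 18 h, where they did not (SD, n = 3 each).

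**Figure D4:**
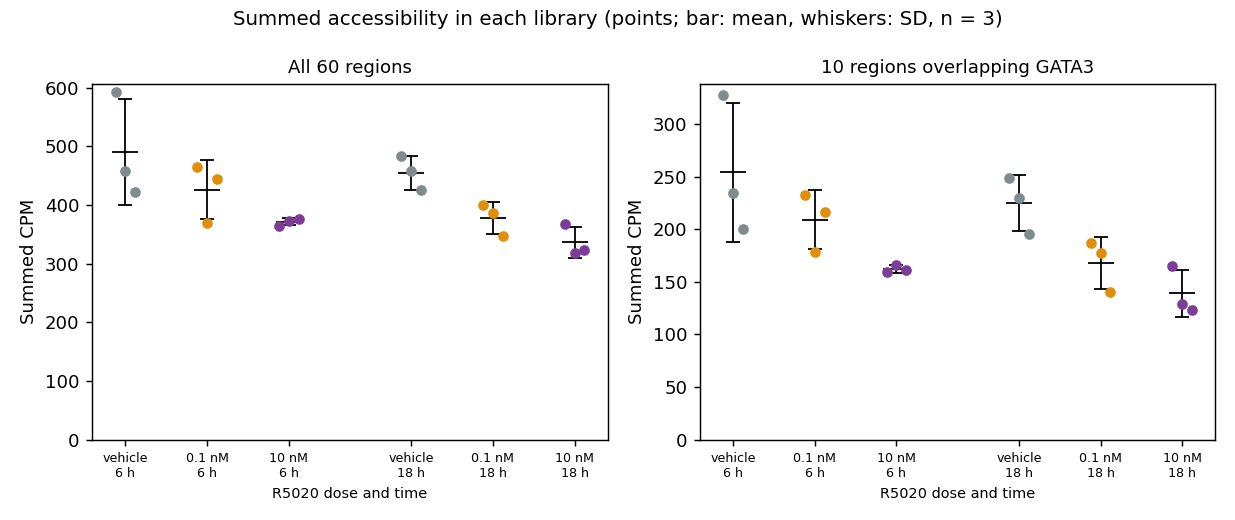
Summed CPM per library (points, vertical axis from 0) over the 60 regions of the locus (left) and over the 10 that overlap GATA3 (right) in vehicle, 0.1 nM and 10 nM groups at 6 h and 18 h (horizontal axis); bars are means and whiskers the SD of 3 libraries. The 10 nM sums lie under every vehicle sum of their time, and vehicle replicate 1 at 6 h, at 593 and 328 CPM, stands highest.

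Likeness of pattern was measured as the root mean square difference between the log2 group means of 2 regions, each centred on its own average, over the 6 groups. The region at the GATA3 start was most like chr10:8121133-8121746 at 24.4 kb (0.0822), the -4.1 kb region (0.0896) and chr10:8090288-8090464 (0.104), against a median of 0.385 over the other members. The region at 306.5 kb was most like those at 529.8 kb (0.378), 380.3 kb (0.683) and 89.8 kb (0.695), against a median of 1.26. These values describe group means that share libraries and scaling.

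Library differences bear on the locus in a few places. Once the fraction in the 5000 strongest regions was a covariate, 18 of the 20 members called with 10 nM at 6 h kept their direction and call, as did 19 of the 21 at 18 h. The libraries farthest from their own groups were 10 nM replicate 1 at 18 h and vehicle replicate 1 at 6 h. Without both, 6 members rose and 12 fell with 10 nM at each time, while the rise with 0.1 nM at 6 h was lost. The shares of all regions differed between the times in that fit. With 10 nM 14.2% were higher and 5.84% lower at 6 h, and 11.2% higher and 12.2% lower at 18 h. With all libraries 8.42% were lower at 6 h and 7.56% at 18 h.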

How the data were processed

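Omni-ATAC-seq was measured in 18 libraries of T47D cells, 3 in each of 6 groups set by dose and time. The authors deposited 1 table of raw read counts per region. Per the submitters' processing notes BWA, MACS2 and build hg19 were used; versions, read filters, a Tn5 shift and the merging of regions are not given in the sources used. The table does not say whether starts count from 0 or 1.

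The test was edgeR's quasi-likelihood test (edgeR 4.0.16, R 4.3.3) on these counts. The defaults of filterByExpr (minimum count 10, minimum total 15) kept 132304 of 132604 regions. Then glmQLFit and glmQLFTest with TMM factors were run in 1 fit of 18 libraries with 12 residual degrees of freedom. P-values were adjusted by Benjamini-Hochberg over all regions tested, and an adjusted p under 0.05 made a call. Standard errors are the log2 fold change divided by the root of the F statistic. CPM are TMM-scaled, and precision covers counting error and the spread between libraries only. DESeq2 1.42.0 served as an alternative, beside other scalings, filters, thresholds, a covariate, a replicate block and libraries left out. The procedure was tested on simulated data.

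Named regions were those overlapping GATA3 or its 5 kb upstream, up to 6 rises and 6 falls per dose against vehicle where log2 CPM averaged 0 or more, up to 3 of each between doses with no such minimum, and the 5 most open. The members and lists were chosen with earlier results of these data known. By a cut of r over 0.1, libraries of the same number deviated together for all 3 numbers when 10 nM was set against 0.1 nM at 18 h (r = 0.60, 0.19 and 0.45) and 18 h vehicle against 6 h vehicle (r = 0.32, 0.12 and 0.45), and not in the other comparisons. For 0.1 nM against vehicle at 18 h r was 0.45, 0.10 and 0.46, at the cut. At 18 h total counts fell from replicate 1 to replicate 3 in every group, so pairing and depth cannot be told apart there. The labels do not say that the numbers pair the samples. No 2 libraries of a group were alike within sampling noise. Promoters came from RefSeq (GRCh38.p14), matched by symbol; region sequences, gene lists and hg19 annotation were not used here.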

Additional observations from a re-analysis of the deposited data

How the results depend on the processing

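In summed CPM over all 60 regions, the 10 nM minus vehicle difference was -78.7 at 18 h without TMM factors, from -119, and -75.6 at 6 h, from -120. Without vehicle replicate 1 at 6 h, the 6 h difference was -68.7 with 10 nM and -14.5 with 0.1 nM, from -65.5; over the 10 regions at GATA3 it was -55.2, from -92.4, and -8.36, from -45.5. The 18 h minus 6 h vehicle difference changed sign without that library, to 14.9 from -36.0 over all regions and to 7.97 from -29.1 at GATA3. Counts of members moved as follows, with shares of all regions given except at the stricter thresholds, where none was taken. With 10 nM at 6 h 8 fell with a log2 change of at least 1. With 1 library left out 9 to 15 fell at 6 h, against 4.89 to 9.28% of all regions. At 18 h 6 fell at an adjusted p under 0.01, 6 with a log2 change of at least 1, 7 without TMM factors, 6 in a fit of only the groups compared, 12 without both outlying libraries and 8 to 11 with 1 library left out. The last were 13.3 to 18.3% of the members, against 4.84 to 11.5% of all regions. Without TMM factors 6.32% of all regions fell at 18 h, and 4.88% in the fit of only the groups compared. Without both outlying libraries 12.2% of all regions fell at 18 h. With 0.1 nM at 6 h 0 rose at an adjusted p under 0.01. In the fit of 2 groups 0 rose, against 0.704% of all regions. Without both outlying libraries (chosen after seeing the data) 0 rose, against 0.679% of all regions. With 1 left out 0 to 1 rose, against 0.42 to 0.931% of all regions. With 0.1 nM at 18 h 1 fell without TMM factors and 1 with the covariate, against 0.701% and 1.31% of all regions. Between the doses at 6 h 3 were lower at an adjusted p under 0.01 and 3 with a log2 change of at least 1. With DESeq2 size factors 5 were lower, against 4.54% of all regions. With 1 left out 3 to 7 were lower, against 2.84 to 4.77% of all regions. At 18 h 1 was higher at an adjusted p under 0.01, and 2 were lower with a log2 change of at least 1. In the fit of 2 groups 1 was higher and 1 lower, against 3.69% and 1.37% of all regions. With 1 left out 1 to 5 were higher, against 3.8 to 7.24% of all regions. In those fits 2 to 4 were lower, against 2.23 to 4.54% of all regions. With the covariate 9 were lower, against 7.03% of all regions. The covariate called 1 member lower in the 10 nM response between times, against 0.522% of all regions. The cause of these moves was not tested, apart from stricter thresholds. With the replicate number as a block, 2 members rose and 2 fell with 0.1 nM at 18 h, against 2.75% and 1.31% of all regions. There r did not pass the cut for all 3 numbers, and in 2 comparisons it did. Of these, between the doses at 18 h 6 members were higher and 4 lower, against 8.86% and 6.0% of all regions. Between the vehicles 0 members differed, as did 0% of all regions. Whether the numbers pair the samples is not known. No called member changed direction under any alternative run. Low counts limit the precision for the 12 regions under 1 CPM.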
